A study of Mus musculus with 4 samples.

Results

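Bone morphogenetic proteins (Bmp) and transforming growth factor beta (Tgf-beta) signal through receptors, Smad proteins and target genes, of which 10 are described here, out of 37310 genes in the table. They are the receptor genes Bmpr1a, Bmpr2, Acvr2b and Tgfbr2, the Smad genes Smad1, Smad5 and Smad9, and the inhibitor of differentiation genes Id1, Id2 and Id3, taken by gene symbol with no threshold on their values, but chosen as a group with earlier results of these data known. mRNA of mouse embryonic stem cells (mESCs) of the JM8 line, from the C57BL6/N strain, was sequenced from 2 wild-type libraries and 2 libraries labelled Bmal1-/-. All cells grew without feeders in serum-free 2i + LIF medium, that is N2B27 with 1 µM PD0325901, an inhibitor of Mek, 3 µM CHIR99021, an inhibitor of Gsk3, and leukemia inhibitory factor (LIF). The mutant cells are a single clone made from JM8 with CRISPR/Cas9, which carries frameshift indels in exon 5 of both alleles of Bmal1, and any other difference of this clone from its parent line cannot be told apart from the genotype. The comparison addresses whether the signalling machinery of pluripotent cells is expressed differently in cells that lack Bmal1.

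In this pathway a dimeric ligand brings together type II receptors, which are active kinases, and type I receptors, which they phosphorylate. The type I receptor then phosphorylates receptor-regulated Smads, which join Smad4 and enter the nucleus: Smad1, Smad5 and Smad9 in the Bmp branch, Smad2 and Smad3 in the Tgf-beta, activin and Nodal branch. Id genes are classical direct targets of Bmp Smads, and Id proteins bind E proteins and keep them from DNA. In serum-free culture with LIF, Bmp4 can sustain self-renewal of mESCs through Id genes, a requirement that the 2 inhibitors of 2i medium remove.

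The libraries held 21504265 to 23329034 reads on genes. A value is the number of reads of a gene divided by one factor per library (trimmed mean of M values, TMM), so that 1 read is worth 0.939 to 1.06. Bmal1 itself, listed as Arntl, stood at 678 and 733 in wild-type against 556 and 590, which is −0.30 as log2 fold change (adjusted p = 0.0011, limma with Benjamini-Hochberg adjustment). The mRNA therefore does not identify the genotype, and libraries are called by their labels. The summed value of 8 naive pluripotency genes was 85721 and 85957 in wild-type and 85972 and 86726 in the others, and Pou5f1 and Nanog were abundant in all 4 libraries. Single naive genes did move, 3 higher and 4 lower of 8, among them Nanog (log2 fold change 0.25), Tbx3 (0.36), Pou5f1 (−0.13) and Dppa3 (−0.95), so that the near-equal sums are a balance of opposite differences. At an adjusted p-value under 0.05, 24% of all genes tested were higher and 28.6% lower. Genes of the two-cell-like state, which a small fraction of mESCs enters, moved with the label: 6 such genes summed to 142 and 183 in wild-type and to 2026 and 2010 in the libraries labelled Bmal1-/-. All 5 that were tested passed 2-fold, where 7.21% of all genes tested did. Tdpoz4 reached the mean of 10 needed for a test only through the libraries labelled Bmal1-/- (mean 34.1, against 3.69 in wild-type). The other marker sums were 2645 and 2449 against 2069 and 2166 for 4 primed pluripotency genes and 466 and 440 against 337 and 302 for 5 mesoderm genes. Dnmt3b made up nearly all of the primed sum (2631 and 2421 against 2063 and 2160). Of the 3 mesoderm genes tested, 1 was called, Eomes, which was lower (271 and 262 against 163 and 136). Mixl1 overlapped (27.4 and 36.1 against 44.2 and 34.3), and Hand1, with few reads, was higher (2.11 and 5.31 against 8.45 and 9.54). The 7 primitive endoderm genes summed to 177 and 193 against 198 and 195, but Sox7 fell from 46.4 and 52.1 to 5.64 and 12.4 (−2.41) and Sox17 rose from 10.5 and 14.9 to 32.9 and 30.5 (1.27), the 2 of 4 tested that passed 2-fold. The sums were 76.9 and 75.4 against 47.0 and 52.4 for 3 trophoblast genes and 69.5 and 75.4 against 108 and 97.3 for 5 fibroblast genes, of which Col1a2, Col3a1 and Postn held at most 3 reads in each library. The part of these markers in the differences below was not tested, and in bulk samples fewer cells of a type and less RNA per cell cannot be told apart.

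Receptor and Smad mRNAs were compared gene by gene. Of the 10 genes, which all passed the filter on low values (mean of at least 10), 4 were higher in the libraries labelled Bmal1-/- at an adjusted p-value under 0.05: the type II receptor genes Tgfbr2, Bmpr2 and Acvr2b, and Smad9. Smad9 passed the filter only through the libraries labelled Bmal1-/- (mean 19.0, against 7.42 in wild-type), so its place in these counts depends on the group where it is high. Id1 was the 1 gene that was lower. The type I receptor gene Bmpr1a, Smad1, Smad5, Id2 and Id3 did not pass the test. These 5 calls have to be read against a background of 52.6% of all 14510 genes tested, 24% called higher and 28.6% called lower, so that 5 of 10 is no more than the share found among all genes. Past 2-fold there were 3 genes, Tgfbr2, Smad9 and Bmpr2, all higher, where 7.21% of all genes passed, 5.75% higher and 1.45% lower. The median log2 fold change of the 10 genes was 0.09, beside −0.03 for all genes tested. In 8 of the 10 the wild-type and the other values did not overlap, which was so for 76% of all genes.

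**Figure D1:**
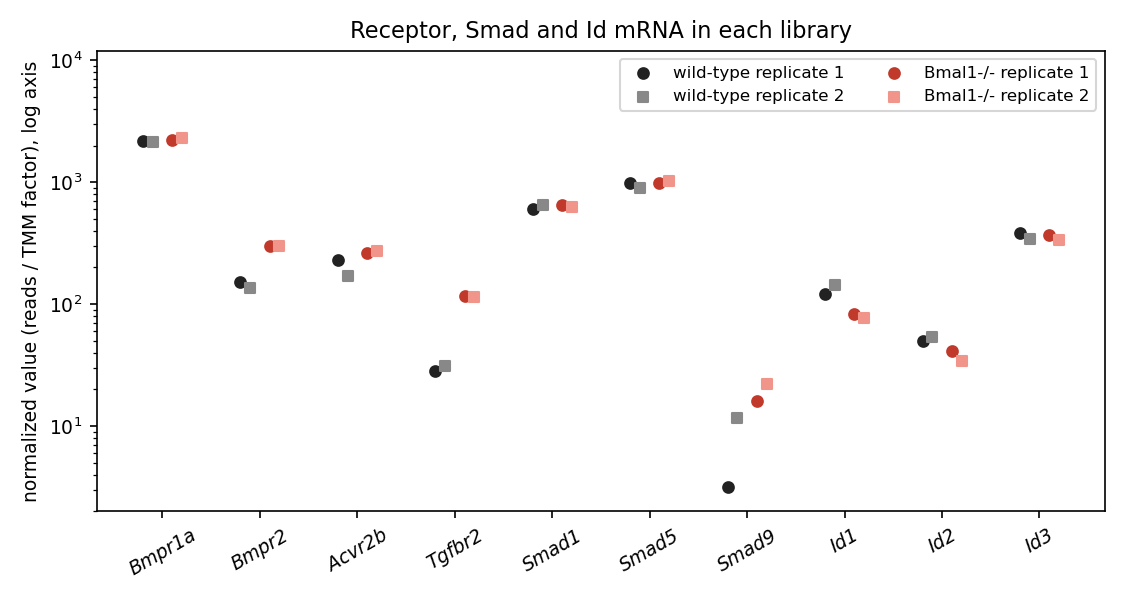
Normalized value (reads divided by the TMM factor, log axis) of each of the 10 genes in the 4 libraries; each point is 1 library. Tgfbr2 and Bmpr2 lie clearly higher in both libraries labelled Bmal1-/-, Id1 lies lower, Smad1 and Id3 overlap, and Smad9 has the lowest values and the widest wild-type spread.

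The sequences upstream of the genes that were called higher are printed here, because these 4 genes moved in the same direction. RefSeq promoter windows, 250 bases before to 50 after the RefSeq transcription start, were found for 9 of the 10 genes, all but Id1. Each was placed on NCBIM37 (mm9) by an exact and single match. This start was often not the 5′ end of the gene model used for reads. Its offset was 795 bases for Bmpr1a, 658 for 1 Smad5 window and 325 for Id3. It was −358 for Bmpr2 and −266 for Acvr2b, where negative means before that end. The other offsets lay between −98 and 90, and other windows were not searched. The 250 bases before the start follow 5′ to 3′ on the strand of the gene, with GGCGCC, a GC-rich motif bound by Smad1 and Smad5, in capitals.
Bmpr2 (chr1:59820873-59821122, + strand): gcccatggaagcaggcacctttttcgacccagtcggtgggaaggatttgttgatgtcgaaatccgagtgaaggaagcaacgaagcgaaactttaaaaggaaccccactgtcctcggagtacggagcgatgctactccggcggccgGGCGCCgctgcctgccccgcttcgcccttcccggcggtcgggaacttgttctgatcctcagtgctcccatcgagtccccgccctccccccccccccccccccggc
Acvr2b (chr9:119311046-119311295, + strand): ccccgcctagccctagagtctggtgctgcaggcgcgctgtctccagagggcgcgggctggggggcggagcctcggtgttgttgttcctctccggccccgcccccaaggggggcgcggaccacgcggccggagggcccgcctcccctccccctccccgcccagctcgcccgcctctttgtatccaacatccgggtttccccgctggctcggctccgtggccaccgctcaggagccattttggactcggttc
Tgfbr2 (chr9:116084482-116084731, - strand): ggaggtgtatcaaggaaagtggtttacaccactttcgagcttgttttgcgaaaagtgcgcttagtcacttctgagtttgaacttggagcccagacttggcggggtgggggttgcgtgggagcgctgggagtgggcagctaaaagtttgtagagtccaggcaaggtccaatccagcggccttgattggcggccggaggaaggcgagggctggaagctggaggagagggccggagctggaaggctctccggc
Smad9 (chr3:54559254-54559503, + strand): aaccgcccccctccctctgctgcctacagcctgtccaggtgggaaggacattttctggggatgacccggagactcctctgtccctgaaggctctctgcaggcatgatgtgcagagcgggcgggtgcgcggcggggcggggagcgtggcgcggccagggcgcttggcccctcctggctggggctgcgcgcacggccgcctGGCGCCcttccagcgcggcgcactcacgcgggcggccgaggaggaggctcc
Id2, the Id gene with the larger difference of the 2 that have a window, is shown beside them.
Id2 (chr12:25780958-25781207, - strand): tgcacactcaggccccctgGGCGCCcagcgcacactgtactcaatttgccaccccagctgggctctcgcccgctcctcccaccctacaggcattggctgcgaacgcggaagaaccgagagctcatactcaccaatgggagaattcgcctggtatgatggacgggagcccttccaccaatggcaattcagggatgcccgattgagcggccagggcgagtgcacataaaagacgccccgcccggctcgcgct

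CACGTG, the E-box that Bmal1 binds together with Clock, was found in 0 of the 11 windows of these 9 genes (Smad5 has 3 windows), and in 7.15% of 32851 windows of all genes. GGCGCC occurred in 6 of the 11 windows, those of Bmpr1a, Bmpr2, Smad9, Id2 and 2 of the 3 of Smad5, and in 11.9% of all windows. These 2 Smad5 windows overlap and hold the same match, after the start of 1 window and before that of the other. Counted by gene, 5 of 9 had the motif. Both motifs read the same on either strand, and with no CACGTG match in these windows no match of 1 motif overlapped the other motif. The 11 windows had a GC content of 59.0% to 79.3%, above the median of 52.7% of all windows; the part of base composition in the motif count was not tested. GGCGCC stood in windows both of genes that were called higher (Bmpr2, Smad9) and of genes that were not called (Bmpr1a, Smad5, Id2), and was not in the windows of Tgfbr2 and Acvr2b. A match is a string of letters and not a shown binding site, and no match says nothing about the factor outside these windows.

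Among the receptors, Tgfbr2 differed most. It encodes the type II receptor that binds Tgf-beta itself and lies on chromosome 9 from 115993415 to 116084383, minus strand, in mm9. Wild-type libraries held 28.4 and 30.8 and those labelled Bmal1-/- 117 and 114 in normalized value, from 27 and 29 against 125 and 120 reads. Replicates lay close together and the groups far apart, with 95% counting intervals that reached up to 44.2 in wild-type and down to 94.9 in the others. The log2 fold change was 1.93 (95% interval 1.54 to 2.32, adjusted p = 3.8e-08), a 3.82-fold higher level, and 1.98% of all genes tested had a higher log2 fold change. It stayed between 1.67 and 2.00 under the 15 alternatives in which it was tested, each with an adjusted p-value under 0.05. The mRNA remained one of low abundance in both groups.

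Bmpr2, the type II receptor gene for Bmp ligands on chromosome 1 (59821481 to 59927703, plus strand), had values of 151 and 136 in wild-type against 302 and 299. Both libraries labelled Bmal1-/- were above both wild-type libraries by more than the replicates differed. The log2 fold change was 1.06 (95% interval 0.84 to 1.29, adjusted p = 6.5e-08). It lay close to the 2-fold line, at 0.99 both with quantile normalization and when wild-type replicate 2 was left out, while the adjusted p-value stayed under 0.05 in all 16 alternatives.

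Acvr2b encodes a type II receptor for activin, Nodal and some Bmp ligands and lies on chromosome 9 from 119311562 to 119342619, plus strand. Its values were 229 and 171 in wild-type against 263 and 273. The wild-type libraries differed from each other by more than wild-type replicate 1 differed from the other group. The log2 fold change was 0.44 (95% interval 0.19 to 0.69, adjusted p = 0.0044). The call rested on wild-type replicate 2, the lower library: without it the log2 fold change was 0.23 (adjusted p = 0.095), and with it as the one wild-type library 0.64. It was also lost with no filter on low values (adjusted p = 0.13).

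Bmpr1a, the main type I receptor of Bmp signalling, on chromosome 14 (35223920 to 35316527, minus strand), was the most abundant of the 10 genes. Its values were 2173 and 2143 in wild-type against 2240 and 2308. The groups stood apart by little, with a log2 fold change of 0.08 (95% interval −0.02 to 0.17, adjusted p = 0.18). The interval bounds any increase at 0.17 on the log2 scale with TMM scaling; with equal library totals the value was 0.14 and with quantile normalization 0.12, both with an adjusted p-value under 0.05 (0.018 and 0.035). An antisense transcript, Gm17110, shares 290 exonic bases with Bmpr1a and had values of 0 to 2.11.

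**Figure D2:**
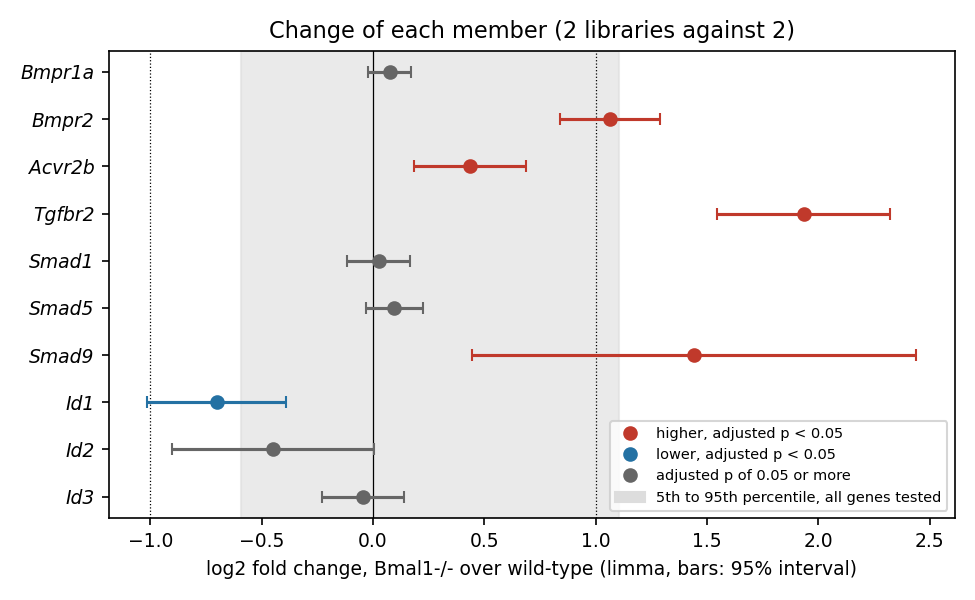
Log2 fold change of each gene, libraries labelled Bmal1-/- over wild-type, with its 95% interval from limma; dotted lines mark 2-fold and the grey band spans the 5th to the 95th percentile of all genes tested (−0.59 to 1.11). Tgfbr2 and Smad9 lie above the band and Id1 below it, and the intervals of Bmpr1a, Smad1, Smad5, Id2 and Id3 include 0.

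The levels of Bmpr2 and Tgfbr2 were also set against a type I receptor gene within each library, where the scaling of libraries cancels; these are the 2 type II genes with the highest log2 fold changes, and the ratios describe them and not the class. Levels were divided by the length of all annotated exons, as value per kb. Bmpr2 per kb was 0.126 and 0.115 of Bmpr1a per kb in wild-type and 0.244 and 0.235 in the libraries labelled Bmal1-/-. Tgfbr2 per kb was 0.0235 and 0.0258 of its type I partner Tgfbr1 in wild-type and 0.0798 and 0.0750 in the others. Both ratios were higher in both libraries labelled Bmal1-/-, with no overlap; with 2 libraries against 2 no exact permutation test can reach 0.05, and none is given. Over the 5 type II receptor genes the summed level per kb was 290 and 258 in wild-type and 379 and 381 in the others. In that sum Bmpr2 took 14.8% and 15.0% in wild-type and 22.7% and 22.4% in the others, and Tgfbr2 1.21% and 1.47% against 3.83% and 3.71%. The share of Acvr2b overlapped (45.0% and 37.7% against 39.6% and 40.8%), and that of Acvr2a was lower (21.5% and 23.2% against 18.8% and 19.4%), although its own level was not. The annotated models of Bmpr2 and Acvr2b are 88.8% and 91.7% coding, against 19.3% to 46.8% for the other 8 genes, so reads from unannotated untranslated ends would not be counted and levels per kb of these 2 genes compare less well with the rest.

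Smad1, Smad5 and Smad9 transmit the Bmp signal. Smad1 (chromosome 8, 81862294 to 81923417, minus strand) had values of 609 and 652 in wild-type against 653 and 630. The groups overlapped, and the log2 fold change was 0.03 (95% interval −0.12 to 0.17, adjusted p = 0.78), or −0.02 without wild-type replicate 1. Smad5 (chromosome 13, 56804371 to 56843738, plus strand) had 979 and 891 against 980 and 1016, a log2 fold change of 0.09 (95% interval −0.03 to 0.22, adjusted p = 0.20). Its groups touched, with wild-type replicate 1 only just below the other group, and it came to 0.16 with an adjusted p of 0.038 with equal library totals and of 0.040 without wild-type replicate 1. The sum of Smad1 and Smad5 per kb was 237 and 232 in wild-type and 244 and 245 in the others.

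Smad9, on chromosome 3 from 54559504 to 54605179, plus strand, was read from few molecules. It had 3 and 11 reads in wild-type against 17 and 23, with normalized values of 3.16 and 11.7 against 16.0 and 21.9. The lowest of the latter was above both wild-type values, but the counting intervals of wild-type replicate 2 (5.83 to 20.9) and of Bmal1-/- replicate 1 (9.30 to 25.6) overlapped. The log2 fold change was 1.44 (95% interval 0.44 to 2.44, adjusted p = 0.016). Leaving out wild-type replicate 1 gave 0.64 (adjusted p = 0.20), and leaving out wild-type replicate 2 gave 2.25. The call was also lost without Bmal1-/- replicate 2 (adjusted p = 0.15) and in DESeq2 (adjusted p = 0.14), and held in edgeR. Within the 3 Bmp Smads, Smad9 took 0.25% and 0.93% of the level per kb in wild-type and 1.20% and 1.64% in the others.

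**Figure D3:**
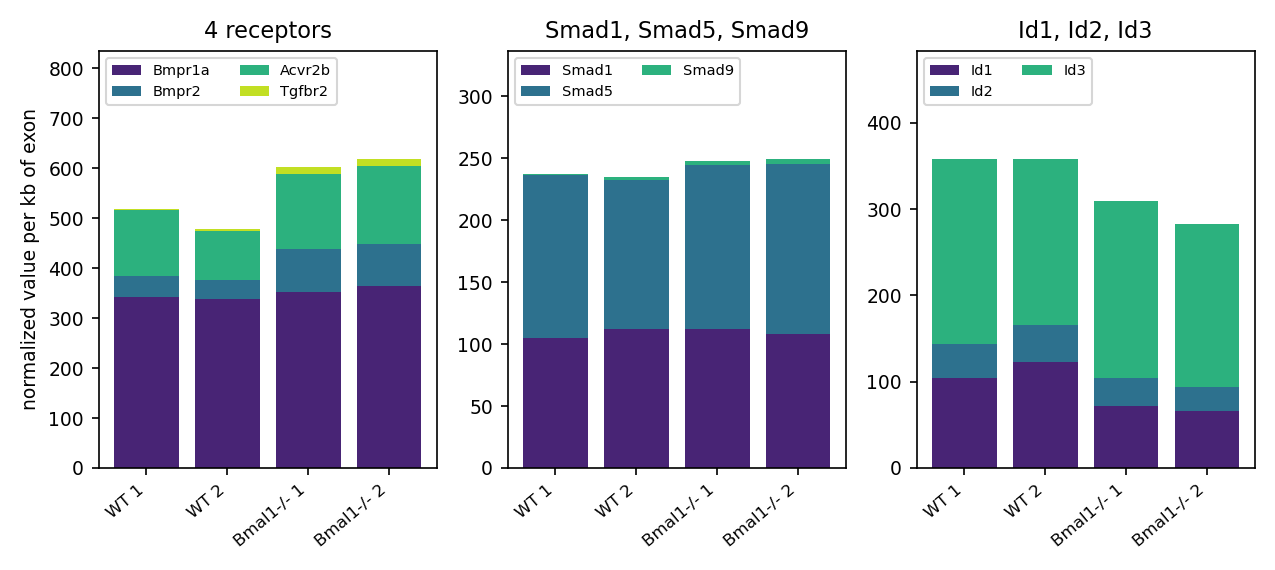
Normalized value per kb of annotated exon, stacked, for the 4 receptor genes, the 3 Bmp Smad genes and the 3 Id genes; each bar is 1 library. The Smad stack is nearly all Smad1 and Smad5 in each library, the receptor stack is taller in the libraries labelled Bmal1-/-, and the Id stack is shorter, from 358 and 358 to 310 and 283.

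Of the Id genes, Id1 was lower, and Id3 did not differ beyond the spread. Id1 (chromosome 2, 152561987 to 152563146, plus strand) had values of 121 and 142 in wild-type against 83.6 and 77.2, or 132 ± 15.0 against 80.4 ± 4.50 (mean ± SD, n = 2). Both libraries labelled Bmal1-/- were lower, by −0.70 on the log2 scale (95% interval −1.01 to −0.39, adjusted p = 5.2e-04). The adjusted p-value was under 0.05 in all 16 alternatives, and the log2 fold change lay between −0.88 and −0.59. Of all genes tested, 3.68% had a lower log2 fold change.

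Id2 (chromosome 12, 25778666 to 25780957, minus strand) had values of 49.5 and 54.2 in wild-type against 41.3 and 34.3, from 36 to 51 reads. Both values of the latter were below both of wild-type, by more than the replicates differed. The log2 fold change was −0.45 (95% interval −0.90 to 0.003, adjusted p = 0.089) and did not pass the test. Its standard error, 0.217 in this limma fit, was 0.118 without the intensity trend over genes (adjusted p = 0.058). With quantile normalization the log2 fold change was −0.70 with an adjusted p of 0.013. Id3 (chromosome 4, 135699412 to 135701670, plus strand), the most abundant of the 3, had 383 and 345 against 367 and 339. Its groups overlapped, with a log2 fold change of −0.05 (95% interval −0.23 to 0.14, adjusted p = 0.69), whose sign turned with equal library totals (0.02) and with 1 library left out (0.03 without wild-type replicate 1).

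Within each library, Id1 per kb was 0.488 and 0.637 of Id3 per kb in wild-type and 0.351 and 0.352 in the libraries labelled Bmal1-/-, with no overlap. Id2 per kb was 0.182 and 0.221 of Id3 in wild-type and 0.159 and 0.143 in the others. Id proteins act by binding E proteins, and the 3 E protein genes were examined for that reason. Tcf3, at 4127 and 3825 in wild-type and 3108 and 2973 in the others, fell by 0.39 on the log2 scale (adjusted p = 7.8e-07), Tcf4 fell by 0.15 on the log2 scale (adjusted p = 0.043), and Tcf12 rose by 0.20 (adjusted p = 0.0028). The call of Tcf4 was lost without either library labelled Bmal1-/- or without wild-type replicate 1 (adjusted p = 0.11 to 0.20) and in edgeR and DESeq2, and that of Tcf12 without Bmal1-/- replicate 2 (0.057). The summed E protein mRNA per kb was 1379 and 1299 in wild-type and 1150 and 1132 in the others. The sum of Id1 to Id3 divided by it was 0.259 and 0.276 against 0.269 and 0.250. This ratio overlapped between the groups, as both sums were lower. It leaves out Id4, which had 78.7 and 81.9 per kb in wild-type against 57.2 and 70.7.

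In wild-type libraries the order of levels per kb ran from Bmpr1a (340 ± 3.42, SD, n = 2) over Id3 (203) to Smad5 (126), Acvr2b (114), Id1 (114) and Smad1 (108), then Bmpr2 (40.9) and Id2 (40.8), and last Tgfbr2 (3.66) and Smad9 (1.38). Neighbours from Smad5 to Smad1 overlapped in their 2 libraries, as did Bmpr2 and Id2, and their order is not resolved. In the libraries labelled Bmal1-/- Acvr2b (153) stood above Smad5 (134), and Bmpr2 (85.7) above Id1 (69.3), with no overlap between neighbours. Taking the longest transcript in place of all exons moved Smad1 above Smad5 in both groups, since Smad1 then has 3775 in place of 5814 bases. With that length Acvr2b (155) and Smad5 (152) overlapped in the libraries labelled Bmal1-/-, and Smad1 (170) stood above Acvr2b. The order of these genes therefore depends on the length used.

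The remaining genes of the pathway give the surroundings of these 10. Of 107 further genes listed by hand, 76 passed the filter, and 27 of them were higher and 17 lower at an adjusted p-value under 0.05, 44 of 76 beside 52.6% of all genes. Past 2-fold, 1 was higher, Bmp8b, where 5.75% of all genes were. Its mean was 19.9 in the libraries labelled Bmal1-/- and 7.41 in wild-type, so it passed the filter only through the former. The median log2 fold change of the 76 genes was 0.08. Among ligands, 5 of 6 tested Bmp and Gdf genes passed. Bmp4, the Bmp used to sustain mESCs in serum-free medium, had 163 and 180 in wild-type against 90.2 and 87.7 and fell by 0.94 on the log2 scale (adjusted p = 6.8e-06), and Gdf3 by 0.29 on the log2 scale. Bmp6 (0.78, adjusted p = 0.0073), Bmp7 (0.39) and Bmp8b rose, the last from 7.37 and 7.44 to 20.7 and 19.1 (1.31, adjusted p = 0.0067). Bmp8b lost its call without Bmal1-/- replicate 1 (adjusted p = 0.065) and Bmp6 without Bmal1-/- replicate 2 (0.098), and both did in DESeq2.

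Among Tgf-beta, activin and Nodal ligands 3 of 9 tested genes passed, all lower: Lefty1 (−0.73, adjusted p = 1.7e-08), Tgfb1 (−0.64) and Lefty2 (−0.48). Of all genes tested, 28.6% were called lower and 52.6% in either direction. Lefty1 and Lefty2 encode inhibitors of Nodal and are themselves targets of the Nodal branch. Nodal had 2047 and 2225 against 2249 and 2214 and did not pass (0.06, adjusted p = 0.29). Tgfb1, a ligand of Tgfbr2, had 116 and 125 in wild-type against 86.4 and 68.7, and was not called without Bmal1-/- replicate 2 (adjusted p = 0.051) or in DESeq2 (0.052).

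All 5 type II receptor genes were tested, and 4 were higher, Acvr2a (0.25, adjusted p = 0.015) besides the 3 described, while Amhr2 had 0.01. Acvr2a was not called without wild-type replicate 2 (adjusted p = 0.053) or without either library labelled Bmal1-/- (0.056 and 0.12), nor in DESeq2 (0.089). Of the 4 type I genes tested only Tgfbr1 was higher (0.32, adjusted p = 6.8e-05), and Acvr1 and Acvr1b had 0.17 and −0.15 (adjusted p = 0.12 and 0.071). The median log2 fold change was 0.44 for type II and 0.12 for type I genes. Whether type II genes moved more than type I genes was not tested, and the 3 type II genes among the 10 were chosen with these results known. Of 7 co-receptor genes tested 5 were higher and none lower. The counts of called genes in these receptor classes stand beside 24% of all genes called higher and 28.6% called lower. Whether any class differed from all genes was not tested. Tgfbr3, a co-receptor that presents Tgf-beta to Tgfbr2, rose most, from 119 and 89.2 to 194 and 176 (0.84, adjusted p = 5.2e-05), followed by Rgma (0.30). Tdgf1 (0.14) and Eng (0.15) were the lowest of the 5, and their calls were lost without Bmal1-/- replicate 2 (adjusted p = 0.083 and 0.14); that of Eng was also lost when either replicate 1 was left out (0.14 for wild-type, 0.074 for Bmal1-/-) and in DESeq2 (0.053).

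Smad9 was the 1 of 8 Smad genes that passed. The other 7, Smad1 and Smad5 included, had log2 fold changes between −0.09 (Smad7) and 0.28 (Smad6, adjusted p = 0.073). Antagonists and latency proteins were mixed, with 3 of 9 tested higher and 2 lower. Among the called genes Ltbp2 (0.75, adjusted p = 0.046) and Ltbp1 (0.58) were highest, and Dand5 (−0.61, adjusted p = 0.0043) and Ltbp4 (−0.31) lowest. With 1 library left out, Ltbp1 lay at 0.27 (without wild-type replicate 1, adjusted p = 0.14) to 0.88 (without wild-type replicate 2) and also lost its call without Bmal1-/- replicate 1 (0.062). Ltbp2 lost its call without wild-type replicate 2 (0.16) or Bmal1-/- replicate 2 (0.38, with a log2 fold change of 0.48), and Dand5 without Bmal1-/- replicate 2 (0.055). In DESeq2 Ltbp1 (0.052), Ltbp2 (0.23) and Dand5 (0.084) were not called. Intracellular regulators passed in 16 of 22 cases, 10 higher and 6 lower. Of all genes tested, 52.6% passed, 24% higher and 28.6% lower, and whether any of these lists differed from that was not tested. Nedd4l (0.59), a ubiquitin ligase that acts on Smad2 and Smad3, and Usp9x (0.55), a deubiquitinase of Smad4, were highest, and Foxh1 (−0.52), a DNA-binding partner of Smad2, and Fkbp1a (−0.40), which binds type I receptors, lowest.

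Among 20 tested target genes, Id1 to Id3 included, 5 were higher and 5 lower, with a median log2 fold change of −0.24. Lefty1, described above with the ligands, was among the lower ones. Msx2 (0.51, adjusted p = 0.023) and Ctgf (0.42, adjusted p = 2.3e-05) were highest, but Msx2 had 0.29 without wild-type replicate 1 (adjusted p = 0.21) and lost its call without either library labelled Bmal1-/- (0.064 and 0.16) and in DESeq2 (0.16). Dusp9, a phosphatase gene that Bmp4 induces in mESCs, rose from 790 and 850 to 1064 and 1029 (0.35, adjusted p = 5.6e-05), whereas Id1 fell. Id4 had −0.33 (adjusted p = 0.056). The 5 higher and 5 lower targets of 20 stand beside 24% of all genes called higher and 28.6% called lower. These counts are near those shares and are no result about targets.

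**Figure D4:**
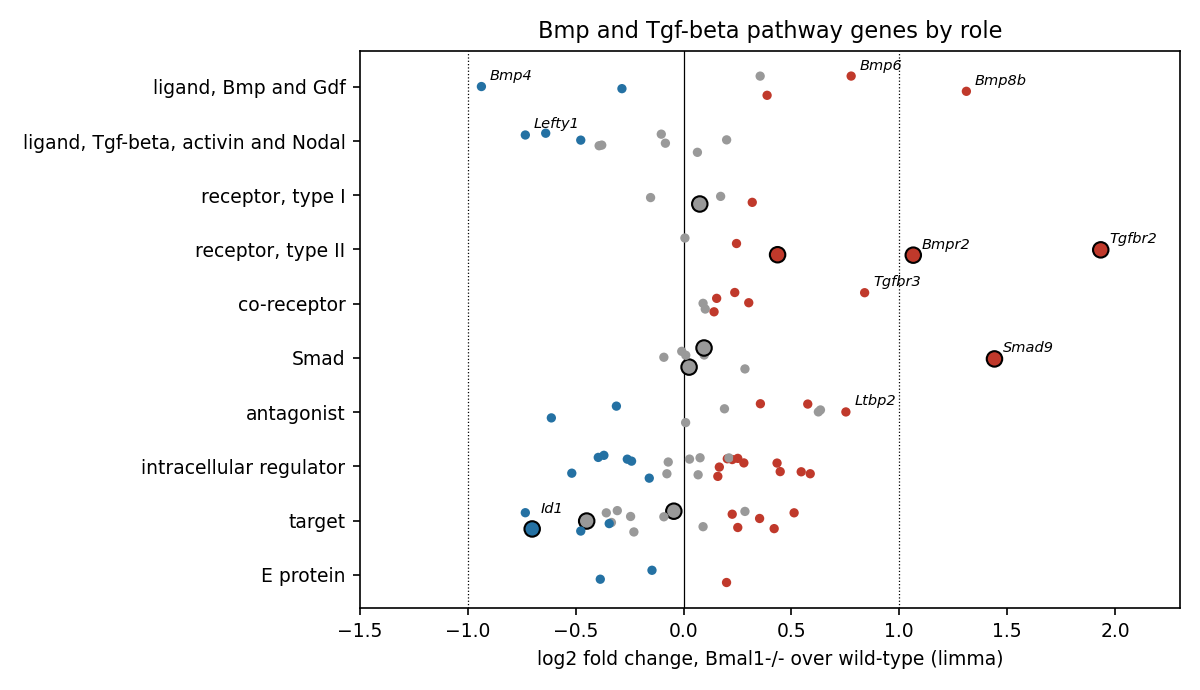
Log2 fold change of tested pathway genes, 1 target left out, grouped by role; red and blue mark genes higher and lower at an adjusted p-value under 0.05, grey the rest, large outlined points the 10 genes, and dotted lines 2-fold. Type II receptors and co-receptors lie at or above 0, Smads cluster near 0 except Smad9, and targets lie on both sides; genes with roles in 2 lists appear in both.

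The genes around the 5 called genes were counted too. Within 500 kb, 51 other genes were tested, of which 10 were higher and 18 lower at an adjusted p-value under 0.05 and 0 past 2-fold by limma. The called share, 28 of 51, stands beside 52.6% of all genes and is no result about these neighbours. Tgfbr2 had 1 tested neighbour in that distance, which was not called.

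**Figure D5:**
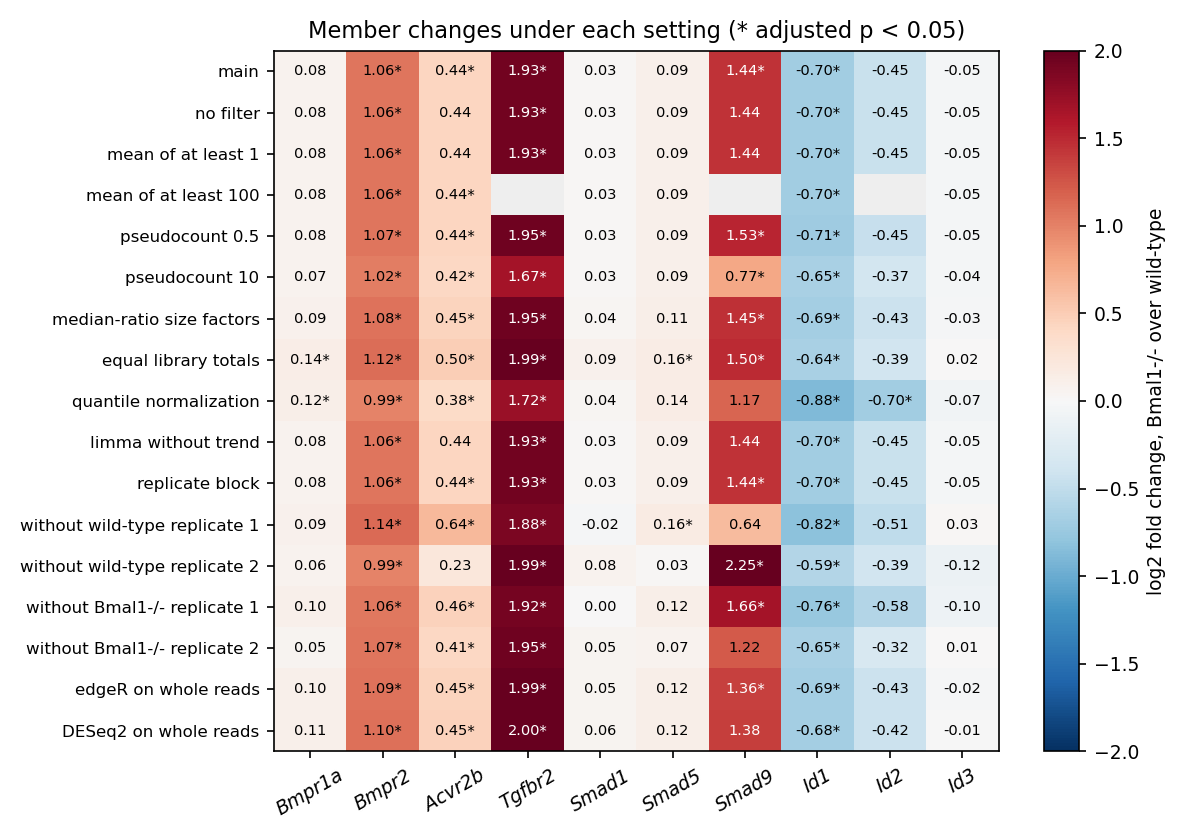
Log2 fold change of each gene under the reported fit (main) and each alternative, with an asterisk for an adjusted p-value under 0.05; empty cells are genes under the filter. Tgfbr2, Bmpr2 and Id1 carry the asterisk in each setting in which they were tested, while Acvr2b and Smad9 lose it in 4 and 7 of them.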

How the data were processed

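mRNA of 2 wild-type and 2 Bmal1-/- cultures was sequenced by the authors from stranded TruSeq libraries. The authors aligned reads to mm9 with STAR 2.5.2b (bcl2fastq 2.18.0.12 and cutadapt 1.9.1 are listed in the submitters' processing notes) and deposited a normalized signal per gene, reads divided by a TMM factor per library (NOISeq); the counting tool is not given in the sources used here. Whole reads were recovered for 100% of values (tolerance 0.01 of a read). All 37310 gene IDs matched GENCODE vM1 (NCBIM37), which gave symbols, positions and lengths. No column was left out.

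Libraries labelled Bmal1-/- were compared with wild-type by limma 3.58.1 (R 4.3.3; lmFit, then eBayes with an intensity trend, prior df 18.1) after adding a pseudocount of 1 and taking log2, which understates changes of low genes, for the 14510 genes whose mean was 10 or more. Adjustment was by Benjamini-Hochberg over all of them. DESeq2, the authors' tool, needs counts and was an alternative on recovered reads (DESeq2 1.42.0, edgeR 4.0.16). Other alternatives were filters, pseudocounts, scalings, no trend, a replicate block and each library left out. Scripts were tested on simulated data. Replicates are 2 cultures of 1 line each, so p-values cover spread between cultures only. With a prior df of 18.1, the variance used for a gene came mostly from the intensity trend over all genes. The gene's own spread between its 2 cultures per group had a smaller part. Without the trend, the adjusted p-value went from 6.5e-08 to 0.0077 for Bmpr2 and from 0.0044 to 0.11 for Acvr2b. For Id2 it went the other way, from 0.089 to 0.058. Counting intervals (exact Poisson, 95%) cover counting error only. Levels per kb used the union of annotated exons.

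The 10 genes and all lists were chosen with earlier results of these data known. Besides the 10, genes named are those of each pathway list called past 2-fold, the 2 highest and 2 lowest called ones, and some that a comparison turned on, chosen after their values were seen (Nodal, Dusp9, Id4, Smad6, Smad7, Acvr1, Acvr1b, Acvr2a, Amhr2, the E protein genes). Marker lists were naive and primed pluripotency, primitive endoderm, mesoderm, trophoblast, fibroblast and two-cell-like genes; Tfcp2l1 and Tfap2c were not analysed here. The values of 1 target gene, which its list's counts include, are not reported here. The neighbour distance was chosen after seeing the data. Other steps used Python 3.11.15 with pandas 2.3.3, numpy 2.4.6, matplotlib 3.10.9 and scipy 1.17.1.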

Additional observations from a re-analysis of the deposited data

How the results depend on the processing

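Tgfbr2, Bmpr2, Id1 and Arntl kept their direction and an adjusted p-value under 0.05 under every alternative in which they were tested; with only genes of a mean of at least 100, Tgfbr2, Smad9 and Id2 were not tested. Acvr2b was no longer called with no filter (log2 fold change 0.44, adjusted p = 0.13), a mean of at least 1 (0.44, 0.054) and limma without the trend (0.44, 0.11), and lay between 0.23 and 0.64 with 1 library left out. Smad9 was no longer called with no filter (1.44, adjusted p = 0.19), a mean of at least 1 (1.44, 0.092), no trend (1.44, 0.15), quantile normalization (1.17, 0.082) and DESeq2 (1.38, 0.14), and lay between 0.64 and 2.25 with 1 library left out. Called in addition were Bmpr1a with equal library totals (0.14) and quantile normalization (0.12), Smad5 with equal totals (0.16) and Id2 with quantile normalization (−0.70). Id3 turned to 0.015 with equal totals. With 1 library left out, log2 fold changes lay between −0.12 and 0.030 for Id3, between −0.024 and 0.075 for Smad1 and between 0.027 and 0.16 for Smad5. Of the 10 genes, 2 were higher at an adjusted p-value under 0.05 with no filter, with a mean of at least 1 or 100 and without the trend, and 2 were lower with quantile normalization; 1 was higher past 2-fold with a mean of at least 100 and 1 with quantile normalization.

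Among the other pathway genes, 17 were higher at an adjusted p-value under 0.05 without the trend, and 17 to 25 with 1 library left out. Past 2-fold, 0 were higher with a mean of at least 100, a pseudocount of 10, quantile normalization or DESeq2, 2 were lower with quantile normalization, and 1 to 2 were higher and 1 to 2 lower with 1 library left out. Of all genes, 2515 were lower without the trend and 2536 in DESeq2. Past 2-fold, 237 were higher and 81 lower with a mean of at least 100, where fewer genes were tested, 135 lower with a pseudocount of 10 and 381 lower with quantile normalization. Directions also turned for genes that were not called: with quantile normalization for Inha (−0.13), Amhr2 (−0.16) and Chrd (−0.24), and for Smad3 with median-ratio size factors (0.0067), equal totals (0.052), edgeR (0.016) and DESeq2 (0.023). With 1 library left out the log2 fold change ran from −0.16 to 0.56 for Inha, −0.097 to 0.11 for Amhr2, −0.018 to 0.22 for Rgmb, −0.047 to 0.030 for Smad3, −0.053 to 0.074 for Smad4, −0.13 to 0.15 for Chrd, −0.0014 to 0.38 for Fst and −0.51 to 0.046 for Zfp423. The cause was not tested for the other changes. The median log2 fold change of all genes moved from −0.03 to between −0.06 and 0.03. Libraries with the same replicate number did not deviate together across genes (correlation of deviations −0.02). This cannot tell whether they came from a shared experiment. The fit with the replicate block changed no call of the 10 genes, with 4 higher and 1 lower. Smad9 and Id2 rest on 3 to 51 reads per library, which limits their precision.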
